A study of Rattus norvegicus with 18 samples.

Results

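Cytochrome P450 families 1 to 4 are the families of this enzyme group that oxidize foreign chemicals, steroids and fatty acids. The members described here are the genes whose name in the deposited rat tables starts with Cyp1, Cyp2, Cyp3 or Cyp4 followed by a letter, which selected 54 of 22081 genes, the same 54 in each of the 3 tables. Family 1 had 3 members, family 2 had 31, family 3 had 4 and family 4 had 16.

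The lungs came from male F344 rats that received, from 9 weeks of age, an intratracheal instillation once every 4 weeks. The MWCNT group was given MWNT-7, a multiwalled carbon nanotube, at 0.5 mg/kg body weight, and the control group was given the saline and Tween 80 vehicle, so the control rats carried the same repeated instillation. Lungs were taken 26 weeks (Year 0.5), 52 weeks (Year 1) and 2 full years (Year 2) after the start, from 3 control and 3 MWCNT rats at each time, which gave 6 groups and 18 rats, each a separate animal. RNA was prepared from small frozen pieces of the accessory lobe, without tumor on gross examination. The microscopic examination was made on the remainder of the lobe, so small focal lesions in the frozen pieces cannot be told from the tissue around them, and age and time of exposure rose together.

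A P450 enzyme binds its substrate next to a heme group and, with electrons handed over by the reductase encoded by Por, inserts an oxygen atom into it. Many family 1, 2 and 3 enzymes are known best from the liver, where receptors such as the aryl hydrocarbon receptor (Ahr), the pregnane X receptor (Nr1i2) and the constitutive androstane receptor (Nr1i3) control them. In rodent lung the enzymes are known mainly from club cells of the small airways and from alveolar type 2 cells, where they turn inhaled chemicals such as naphthalene into reactive products, and family 4 enzymes chiefly hydroxylate fatty acids.

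Counts assigned to genes summed to between 13297643 and 21130757 per rat, so that a limit of 3 counts, used here as the level below which a gene was not detected, stood at 0.142 to 0.226 CPM (counts scaled to a fixed library total); this covers counting error only. TPM, the level per length of transcript in a library scaled to a fixed total, is used for levels and for comparing genes. Fold changes and FDR values (Benjamini-Hochberg over all genes tested) are from edgeR's quasi-likelihood test on the counts, and a member was called when the FDR was below 0.05 and the log2 fold change was above 1 or below -1. Since the values come from whole tissue, fewer cells of a type and less RNA per cell cannot be told apart.

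Upstream sequence is shown for members on which the results turn, since near copies of some genes were read at very different levels. RefSeq (GRCr8) gave the 250 bases before the annotated start for 46 of the 54 members, and no window for Cyp1a1, Cyp2ab1, Cyp2c6v1, Cyp3a23/3a1, Cyp4a1, Cyp4f17, Cyp4f4 and Cyp4v3. GRCr8 is a later build than the Rnor_6.0 (rn6) build of the deposited tables, so these positions do not apply to the tables. Cyp2b1, for which the most counts were read, and Cyp2b2 are a pair of close copies. Cyp2d3, the member that rose most, and Cyp2d5 are another. In the following lines capitals mark the bases at which the copies differ within the stretch shown, 5′ to 3′ in the direction of the gene. The stretches lie at chr1:90645969-90646118 and chr1:90722114-90722263 on the plus strand, and at chr7:115802143-115802292 and chr7:115784527-115784676 on the minus strand.
Cyp2b1: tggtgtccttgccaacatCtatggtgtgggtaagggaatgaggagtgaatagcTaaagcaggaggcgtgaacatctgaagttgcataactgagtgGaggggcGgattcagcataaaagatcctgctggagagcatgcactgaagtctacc
Cyp2b2: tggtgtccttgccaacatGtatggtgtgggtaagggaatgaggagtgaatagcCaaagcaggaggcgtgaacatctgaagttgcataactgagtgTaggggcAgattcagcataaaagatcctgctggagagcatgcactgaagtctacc
Cyp2d3: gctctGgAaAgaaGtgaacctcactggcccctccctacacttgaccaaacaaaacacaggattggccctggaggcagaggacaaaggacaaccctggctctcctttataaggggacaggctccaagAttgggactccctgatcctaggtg
Cyp2d5: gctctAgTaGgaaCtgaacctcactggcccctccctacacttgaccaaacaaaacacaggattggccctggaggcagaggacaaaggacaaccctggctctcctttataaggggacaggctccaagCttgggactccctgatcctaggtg

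Over their best ungapped alignment the upstream windows of Cyp2b1 and Cyp2b2 shared 225 of 233 bases (96.57%), and those of Cyp2d3 and Cyp2d5 shared 205 of 211 (97.16%). The annotated starts are offset, by 17 bases between Cyp2b1 and Cyp2b2 and by 39 bases between Cyp2d3 and Cyp2d5. The counts of these copies were far apart. Over the 18 rats Cyp2b1 had 158767 counts against 18 for Cyp2b2, and Cyp2d3 had 2292 against 52 for Cyp2d5. How the authors' counting split reads shared by such copies was not tested.

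Cyp4b1, Cyp2f4, Cyp2a1 and Cyp2e1 fell at each time point, and the 120 bases before their RefSeq starts are shown for comparison, with capitals marking TATAAA, the core letters of a TATA box, on either strand. They lie at chr5:134393117-134393236 (minus strand), and at chr1:91543648-91543767, chr1:91359158-91359277 and chr1:205269847-205269966 (plus strand).
Cyp4b1: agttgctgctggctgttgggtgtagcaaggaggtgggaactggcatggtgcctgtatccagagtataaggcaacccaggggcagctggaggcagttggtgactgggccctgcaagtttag
Cyp2f4: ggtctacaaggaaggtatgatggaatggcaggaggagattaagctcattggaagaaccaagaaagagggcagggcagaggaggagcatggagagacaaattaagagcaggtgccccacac
Cyp2a1: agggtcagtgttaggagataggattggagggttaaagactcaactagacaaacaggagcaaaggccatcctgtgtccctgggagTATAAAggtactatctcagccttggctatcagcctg
Cyp2e1: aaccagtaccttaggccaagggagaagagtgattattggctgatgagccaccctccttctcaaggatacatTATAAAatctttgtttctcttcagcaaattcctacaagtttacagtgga

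TATAAA or its reverse complement TTTATA was in the 250-base window of 13 of 46 members (28.26%) and of 13.09% of all 27457 genes with a window. Among the members called at every time point, Cyp2a1, Cyp2e1 and Cyp2d3 held it, and Cyp4b1 and Cyp2f4 did not. Cyp2b1, Cyp2d4, Cyp2c23 and Cyp2s1, which passed the FDR at every time without the fold limit at each, did not hold it either. GCGTG (reverse complement CACGC), the core letters to which the aryl hydrocarbon receptor and its partner bind, was in 13 of 46 member windows (28.26%) and in 27.17% of all windows. Cyp2b1, Cyp1b1, Cyp4f39 and Cyp4f5, each lower by the FDR at some time points, were among the 13. The 4 fallers shown above were not. AGGTCA (reverse complement TGACCT), a half-site of nuclear receptors, was in 14 of 46 (30.43%) against 13.66% of all windows. These are matches of letters in a window and say nothing of binding.

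Of the 54 members, 23 were expressed in lung, taken as a mean of at least 1 TPM in at least 1 of the 6 groups. A further 8 had more than 3 counts in some rat but stayed below that level, and 23 were not detected. Of those not detected, 11 had no count in any rat. Expressed members numbered 1 of 3 in family 1, 13 of 31 in family 2, 1 of 4 in family 3 and 8 of 16 in family 4. At other limits of expression, the number of members ranged from 19 to 25.

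The members not detected were of several kinds, some of them best known from the liver. Cyp1a1 and Cyp1a2, the enzymes induced through the aryl hydrocarbon receptor, had at most 3 and 1 counts in a rat. Over all 18 rats they summed to 12 and 2 counts. In family 2C, 6 of 8 members were not detected (Cyp2c12, Cyp2c13, Cyp2c22, Cyp2c24, Cyp2c6v1 and Cyp2c7), Cyp2c11 stayed below the level with at most 5 counts, and Cyp2c23 was expressed. In family 3A, Cyp3a18, Cyp3a23/3a1 and Cyp3a62 were not detected, and Cyp3a9 was expressed. Cyp4a2, Cyp4a3, Cyp4f1, Cyp4f40, Cyp4x1, Cyp2b3, Cyp2b12, Cyp2b15, Cyp2d2, Cyp2g1, Cyp2j16 and Cyp2w1 make up the rest of those not detected. Those below the level, other than Cyp2c11, were Cyp2ab1, Cyp2b2, Cyp2b21, Cyp2d5, Cyp4a1, Cyp4f37 and Cyp4f4. The defining hepatocyte gene Alb was at 0 to 0.375 TPM in every rat.

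Cyp4b1 and Cyp2b1 made up most of the P450 transcript of families 1 to 4. In time order they held 82.1% ± 3.09 (SD, n = 3), 80.2% ± 1.86 and 80.2% ± 2.62 of the summed TPM of the 54 members in control rats, and 77.1% ± 2.03, 76.5% ± 3.18 and 67.1% ± 2.14 in MWCNT rats. Over the 9 control rats family 2 took 52.8% of the sum, family 4 took 46.5%, family 1 took 0.386% and family 3 took 0.315%.

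The summed TPM of the 54 members was lower in MWCNT rats at each time. At Year 0.5 it was 1848 ± 101 (SD, n = 3) in control and 849 ± 149 in MWCNT rats, at Year 1 it was 1827 ± 73.2 and 818 ± 87.8, and at Year 2 it was 1538 ± 16.3 and 512 ± 26.5. No MWCNT rat overlapped the control rats at any time. The ratio of MWCNT to control was 0.459, 0.448 and 0.333 in time order, and without Cyp2b1 and Cyp4b1 it was 0.584, 0.525 and 0.551. By family, the Year 2 ratio was 0.375 for family 2, 0.282 for family 4, 0.513 for family 1 and 0.909 for family 3. These sums are a description and carry no test. Over all genes tested, the median log2 fold change in log2(TPM + 1) was -0.149, -0.212 and -0.2 in time order. In the tests on counts it was -0.0208, 0.000533 and -0.0114, so ratios of TPM stand lower than fold changes from the counts. Cyp3a9, the expressed member of family 3, had a log2 fold change of 0.05 from the counts at Year 2.

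**Figure D1:**
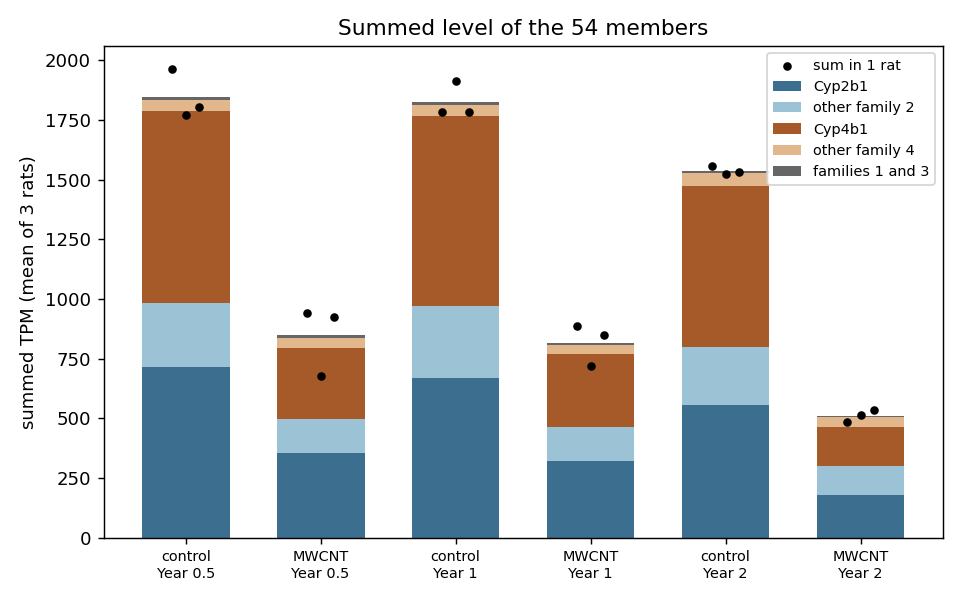
Summed TPM of the 54 members in the 6 groups (vertical axis, mean of 3 rats, stacked by Cyp2b1, Cyp4b1 and the remainder of each family), with 1 point for the sum in each rat. The control bars stand at 1848, 1827 and 1538 TPM and the MWCNT bars at 849, 818 and 512, with Cyp2b1 and Cyp4b1 as the tallest segments.

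Filtering on low counts left 23 members to test at each time point, and 31 not tested, with 22 members tested at all 3 times and 24 at any. Cyp4f37 at Year 0.5 and Cyp4a8 at Year 1 had a mean of at least 10 counts in the control rats alone, so that they could pass only where they were lower in MWCNT rats. At Year 0.5, 1 of 23 members was called higher (all genes, 6.07%) and 4 were called lower (17.4%, against 3.03% of all 14315 genes tested). At Year 1, 1 was called higher (all genes, 6.13%) and 6 lower (26.1%, against 4.09% of 14345). These 6 include Cyp4a8, and also Cyp4f39, which had 10, 13 and 9 counts in the MWCNT rats. With at least 10 counts required in every rat, 5 members were called at Year 1 in either direction, in place of 7. At Year 2, 2 were called higher (8.70%, against 8.17%) and 6 lower (26.1%, against 8.22% of 14361). The shares called higher lay near those of all genes at every time. The shares called lower lay above, at Year 1 with Cyp4a8 and Cyp4f39 included.

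By the FDR alone, 3 members were higher and 8 lower at Year 0.5, where 20.2% and 18.6% of all genes passed. At Year 1 these were 2 and 11, against 21.6% and 19.6% of all genes, and at Year 2 they were 3 and 10, against 25.2% and 24.0%. The median log2 fold change of the members tested was -0.51 at Year 0.5, -0.33 at Year 1 and -0.32 at Year 2, with -0.021, 0.00053 and -0.011 for all genes tested. In all, 10 members were called at 1 or more times, and 5 at all 3. These 5 were Cyp4b1, Cyp2f4, Cyp2a1 and Cyp2e1, which were lower, and Cyp2d3, which was higher. The share of all genes called at 1 or more times, or at all 3, was not worked out. The 10 and the 5 are therefore a list of members, without a share to set them against.

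**Figure D2:**
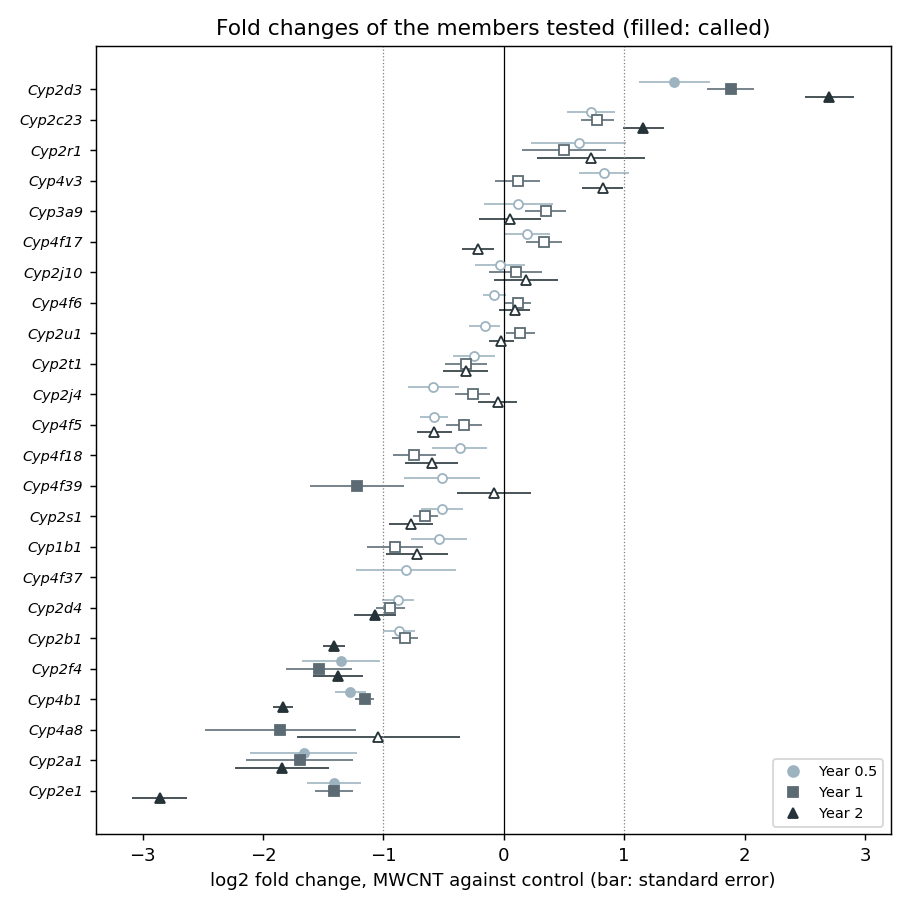
Log2 fold change, MWCNT against control, of the 24 members tested at any time point (horizontal axis, with the standard error as bar; dotted lines at -1 and 1; 1 marker shape per time point; filled markers were called). Cyp2d3 stands at the top with 1.42, 1.88 and 2.70, and Cyp2e1 at the bottom with -1.41, -1.41 and -2.86.

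Cyp4b1 (ENSRNOG00000055078, Rnor_6.0 chr5:134508730-134526089, minus strand), a fatty acid hydroxylase that is abundant in lung and also activates inhaled toxicants, was the highest member in TPM over the 18 rats. Control rats stood at 848, 778 and 777 TPM at Year 0.5, and MWCNT rats at 322, 231 and 348. The Year 1 values were 781, 836 and 771 against 333, 266 and 313, and those of Year 2 were 659, 695 and 674 against 142, 176 and 172. Every MWCNT rat was below every control rat of its time, and the MWCNT rats of Year 2 were the lowest of all. The log2 fold change was -1.28 ± 0.13 (SE, FDR 0.000127) at Year 0.5, -1.16 ± 0.08 (FDR 1.66e-05) at Year 1 and -1.83 ± 0.09 (FDR 8.56e-07) at Year 2.

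Cyp2b1 (ENSRNOG00000033680), the member of family 2B that is constitutively present in rat lung and oxidizes a wide range of foreign chemicals, was nearly as high. Its TPM was 782, 723 and 644 in control and 406, 277 and 383 in MWCNT rats at Year 0.5. At the middle time the values were 689, 674 and 644 against 376, 263 and 332, and at Year 2 they were 542, 555 and 573 against 177, 162 and 201. The groups did not overlap at any time. The FDR passed at each time, with log2 fold changes of -0.87 ± 0.13 (SE, FDR 0.00106), -0.82 ± 0.11 (FDR 0.000445) and -1.41 ± 0.09 (FDR 4e-06), and the fold limit was passed at Year 2. With limma on log2(TPM + 1) the limit was also passed at Year 0.5 (-1.02) and Year 1 (-1.06). The deposited tables place Cyp2b1 on chromosome 7 (99142450 to 99181783), whereas RefSeq GRCr8 places it on chromosome 1, next to Cyp2b2.

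Cyp2f4 (ENSRNOG00000032805, chr1:83933942-83947821, plus strand), known for forming naphthalene epoxide in club cells, varied more among control rats. Its TPM was 91.7, 50.3 and 128 in control and 44.9, 24.9 and 26.3 in MWCNT rats at Year 0.5. The Year 1 values were 84.0, 131 and 110 against 17.9, 38.1 and 38.0, and the Year 2 values were 84.8, 52.1 and 72.6 against 24.6, 26.8 and 18.2. The groups did not overlap, although at Year 0.5 the lowest control rat and the highest MWCNT rat were close. The log2 fold change was -1.35 ± 0.32 (SE, FDR 0.0104), -1.54 ± 0.27 (FDR 0.00228) and -1.38 ± 0.20 (FDR 0.000526) in time order.

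Cyp2a1 (ENSRNOG00000020817), whose product is known in liver as a steroid hydroxylase, was the most variable of the abundant members. Its TPM was 18.6, 8.53 and 34.2 in control and 8.07, 3.79 and 5.84 in MWCNT rats at Year 0.5. At Year 1 it was 15.1, 32.8 and 25.6 against 2.14, 7.73 and 9.18, and at Year 2 it was 25.9, 9.14 and 12.8 against 4.18, 4.78 and 2.65. The groups did not overlap, but the coefficient of variation was 36.3% to 63.3% in the control groups, against 2.69% to 5.13% for Cyp4b1. The log2 fold change was -1.66 ± 0.44 (SE, FDR 0.0169), -1.70 ± 0.44 (FDR 0.0144) and -1.84 ± 0.39 (FDR 0.00379). The call was lost at Year 0.5 without MWCNT rat 2 (-1.41, FDR 0.0649) or rat 3 (-1.64, FDR 0.0515) and at Year 1 without control rat 2 (-1.44, FDR 0.0542). Without control rat 3 the Year 0.5 value was -1.08 (FDR 0.0414). The deposited interval of Cyp2a1 (chr1:83653234-83766484) is 113251 bases long, and no row named Cyp2a3, the close copy that RefSeq places between Cyp2g1 and Cyp2a1, was analysed here, so reads of the copies cannot be told apart.

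The control rats did not rank alike for all members. The control rat lowest for Cyp2f4 at Year 0.5 and at Year 2, rat 2 at both times, was also lowest for Cyp2a1. At Year 1 control rat 1 was lowest for both. Cyp4b1 and Cyp2b1 did not share that order.

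Cyp2e1 (ENSRNOG00000012458, chr1:213511874-213535542, plus strand), which oxidizes ethanol and small solvents, had the largest fall of the members called at Year 2. Its TPM was 23.6, 25.4 and 13.5 in control and 7.204, 6.252 and 7.93 in MWCNT rats at Year 0.5. At the middle time the values were 24.9, 20.4 and 27.6 against 7.39, 6.42 and 9.64, and at Year 2 they were 38.4, 30.8 and 21.3 against 3.53, 3.86 and 3.40. The groups did not overlap, and the distance between them was widest at Year 2. The log2 fold change was -1.41 ± 0.23 (SE, FDR 0.0014), -1.41 ± 0.16 (FDR 0.000218) and -2.86 ± 0.23 (FDR 1.4e-05). Its interval overlaps Syce1 on the opposite strand, which had 6 counts over all 18 rats.

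Cyp2d3 (ENSRNOG00000029179, chr7:123625590-123638765, minus strand), of the family 2D enzymes that oxidize many drugs, was called higher at every time. Its TPM was 1.15, 2.24 and 2.79 in control and 4.69, 5.81 and 4.31 in MWCNT rats at Year 0.5. The Year 1 values were 2.38, 2.17 and 1.72 against 6.39, 7.45 and 5.64, and the Year 2 values were 1.99, 1.31 and 1.93 against 10.5, 10.7 and 8.15. Every MWCNT rat was above every control rat, and the MWCNT rats of Year 2 were the highest of all. The log2 fold change was 1.42 ± 0.29 (SE, FDR 0.00528), 1.88 ± 0.20 (FDR 0.000135) and 2.70 ± 0.21 (FDR 1.01e-05). With limma on log2(TPM + 1) the Year 0.5 value was 0.986 (FDR 0.0092), under the fold limit, so that call was lost.

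Cyp2d4 (ENSRNOG00000032261, chr7:123599266-123608436, minus strand), a form also known from brain that lies near Cyp2d3 with Cyp2d5 between them, went the other way. Its TPM was 35.1, 31.9 and 31.4 in control and 16.8, 12.8 and 19.2 in MWCNT rats at Year 0.5. At Year 1 it was 29.5, 34.9 and 34.0 against 17.6, 12.7 and 13.3, and at Year 2 it was 22.5, 25.2 and 21.9 against 6.69, 10.7 and 11.2. The groups did not overlap. The FDR passed each time, with -0.88 ± 0.13 (SE, FDR 0.00106), -0.94 ± 0.12 (FDR 0.000477) and -1.07 ± 0.17 (FDR 0.000926), and the fold limit at Year 2, where it was lost without MWCNT rat 1 (-0.88). At Year 1 the limit was passed without MWCNT rat 1 (-1.08), by library size (-1.07) and with limma on log2(TPM + 1) (-1.13) or log2(TPM + 0.1) (-1.18). At Year 0.5 it was passed with limma on log2(TPM + 0.1) (-1.02).

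Cyp2c23 (ENSRNOG00000013291, chr1:263778516-263803150, minus strand), an arachidonic acid epoxygenase known from rat kidney, was the other member called higher. Its TPM was 4.69, 5.09 and 7.66 in control and 8.79, 8.23 and 9.09 in MWCNT rats at Year 0.5. At the middle time the values were 7.204, 6.42 and 6.46 against 9.39, 9.73 and 10.04, and at Year 2 they were 4.87, 5.04 and 3.88 against 8.41, 8.94 and 9.29. No MWCNT rat overlapped the control rats at any time. The FDR passed each time, with 0.73 ± 0.20 (SE, FDR 0.0196), 0.78 ± 0.14 (FDR 0.00215) and 1.16 ± 0.17 (FDR 0.000462), and the fold limit at Year 2. The Year 2 call was lost by library size alone (0.99) and with limma on log2(TPM + 1) (0.83) or log2(TPM + 0.1) (0.94). At Year 0.5 the FDR was missed without control rat 1 (0.59, FDR 0.0719), control rat 2 (0.65, FDR 0.0586) or MWCNT rat 1 (0.72, FDR 0.0504).

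**Figure D3:**
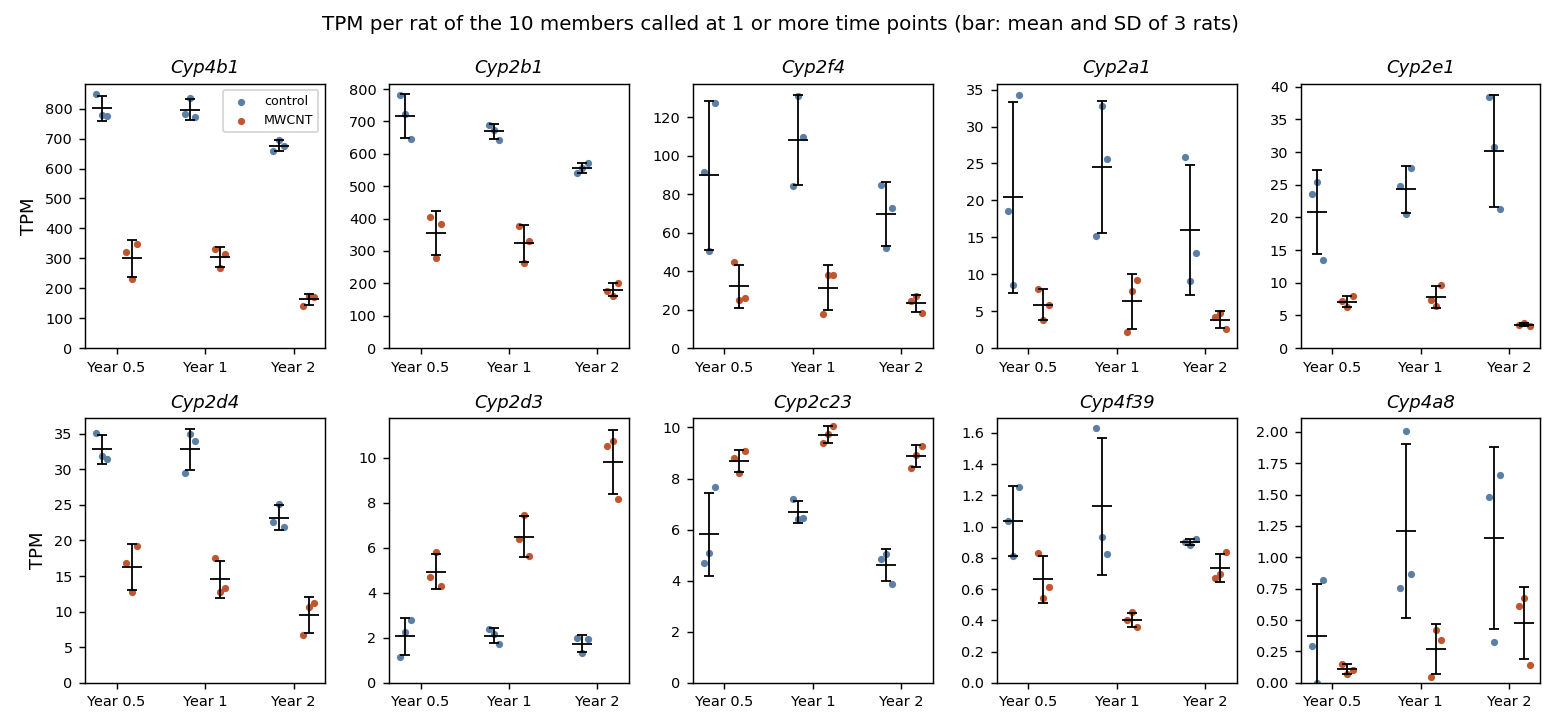
TPM (vertical axes from 0) of the 10 members called at 1 or more time points, with 1 point per rat and bars for the mean and SD of 3 rats, at Years 0.5, 1 and 2. Within a time point, control and MWCNT rats do not overlap for Cyp4b1, Cyp2b1, Cyp2f4, Cyp2a1, Cyp2e1 and Cyp2d4 (lower) or for Cyp2d3 and Cyp2c23 (higher). Cyp2d3 in MWCNT rats ends at 8.15 to 10.7 TPM at Year 2. The share of all genes without overlap was not worked out.

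Cyp4f39 and Cyp4a8, a fatty acid hydroxylase of the 4A subfamily, were called lower at Year 1 alone and stood near the limit of expression. Cyp4f39 had a TPM of 1.04, 0.813 and 1.26 in control and 0.831, 0.544 and 0.613 in MWCNT rats at Year 0.5, of 1.63, 0.935 and 0.825 against 0.402, 0.451 and 0.361 at Year 1, and of 0.901, 0.882 and 0.923 against 0.672, 0.700 and 0.836 at Year 2. Its groups overlapped at Year 0.5 and not at the later times. Its Year 1 log2 fold change was -1.22 ± 0.39 (SE, FDR 0.0335), and the call was lost without control rat 1 (-0.85), control rat 2 (-1.34), or MWCNT rat 1 (-1.19), rat 2 (-1.35) or rat 3 (-1.13). It was also lost with DESeq2 (-1.24, FDR 0.057) and with limma on log2(TPM + 1) (-0.58, FDR 0.0218).

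Cyp4a8 had a TPM of 0.291, 0 and 0.819 in control and 0.152, 0.0735 and 0.0995 in MWCNT rats at Year 0.5, of 0.758, 2.00 and 0.867 against 0.0490, 0.422 and 0.341 at Year 1, and of 1.48, 0.322 and 1.66 against 0.613, 0.672 and 0.145 at Year 2. Its groups overlapped at Years 0.5 and 2. The Year 1 log2 fold change was -1.86 ± 0.62 (SE, FDR 0.0404), and the call was lost without control rat 2 (FDR 0.171), control rat 3 (FDR 0.0575), MWCNT rat 1 (FDR 0.0868) or MWCNT rat 3 (FDR 0.0796). It was also lost in the model of all 18 rats (-1.87, FDR 0.0744) and with limma on log2(TPM + 1) (-0.77, FDR 0.026).

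The other 4 of the 10 members with the highest TPM were Cyp2s1, Cyp4f6, Cyp2u1 and Cyp4f17. Cyp2s1, a P450 of epithelia, had a TPM of 58.1, 43.6 and 72.0 in control and 41.3, 29.7 and 39.4 in MWCNT rats at Year 0.5. It had 59.7, 69.9 and 67.2 against 32.8, 32.3 and 41.5 at Year 1, and 79.1, 51.2 and 50.1 against 31.2, 31.3 and 29.2 at Year 2. Its groups did not overlap, and it fell by 0.52, 0.65 and 0.77 on the log2 scale (FDR 0.0428, 0.00113 and 0.00701), within the fold limit. At Year 0.5 the FDR was missed without control rat 1 (-0.51), control rat 3 (-0.34), MWCNT rat 2 (-0.38) or MWCNT rat 3 (-0.54), and the Year 2 value was -0.49 without control rat 1 (FDR 0.00181).

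Cyp4f6, a fatty acid hydroxylase, had a TPM of 19.8, 21.3 and 18.5 in control and 17.1, 16.6 and 17.3 in MWCNT rats at Year 0.5, of 15.6, 18.5 and 17.4 against 16.9, 15.6 and 15.02 at Year 1, and of 15.9, 19.8 and 17.2 against 15.3, 14.7 and 18.4 at Year 2. Cyp2u1, which hydroxylates long-chain fatty acids, had 14.4, 18.4 and 13.7 against 12.9, 11.7 and 13.2, then 12.9, 13.9 and 11.3 against 12.6, 11.99 and 10.8, then 13.05, 16.4 and 14.1 against 11.8, 12.5 and 12.7. Neither passed the test at any time, with log2 fold changes of -0.08 to 0.12 for Cyp4f6 and of -0.16 to 0.14 for Cyp2u1, and SE of 0.10 to 0.13 in both.

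Cyp4f17 had a TPM of 11.2, 11.4 and 7.61 in control and 12.4, 9.01 and 9.88 in MWCNT rats at Year 0.5, of 8.80, 8.62 and 9.75 against 11.7, 9.22 and 8.21 at Year 1, and of 14.2, 14.2 and 12.02 against 9.73, 11.03 and 9.28 at Year 2. Its log2 fold changes, 0.19, 0.33 and -0.21, did not pass. Cyp4f17 overlaps Cyp4f5 over 16270 bases on the same strand, so the split of reads between them is uncertain. Cyp4f5 fell at Year 0.5 (log2 fold change -0.58, FDR 0.00397) and at Year 2 (-0.58, FDR 0.00934), and had -0.33 (FDR 0.109) at Year 1.

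**Figure D4:**
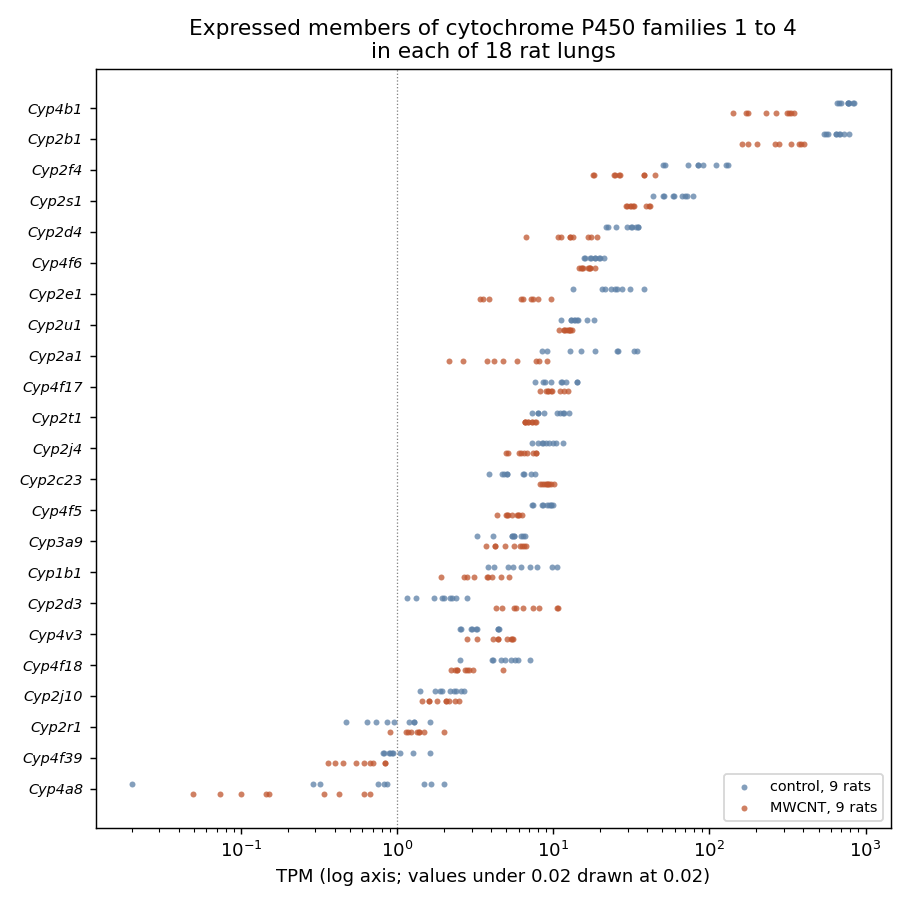
TPM of the 23 expressed members in each rat (horizontal log axis, values under 0.02 drawn at 0.02; 9 control and 9 MWCNT rats over the 3 time points; dotted line at 1 TPM). Cyp4b1 and Cyp2b1 lie apart at the top, and Cyp2d3 and Cyp2c23 are members whose MWCNT points lie to the right of the control points.

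Cyp1b1, the family 1 member expressed in lung, is known to oxidize steroids and polycyclic hydrocarbons and is a target of the aryl hydrocarbon receptor. Its mean TPM was 7.46, 7.60 and 5.02 in control and 4.63, 3.42 and 2.60 in MWCNT rats, in time order. The log2 fold change was -0.54 ± 0.23 (SE, FDR 0.0948) at Year 0.5, and it fell by 0.90 at Year 1 (FDR 0.0132) and by 0.72 at Year 2 (FDR 0.0452). At Year 1 the fold limit was passed without control rat 1 (-1.11), without MWCNT rat 2 (-1.05), by library size (-1.04) and with limma on log2(TPM + 0.1) (-1.10), and the FDR was missed without control rat 2 (-0.70, FDR 0.0515). At Year 2 the FDR was missed without control rat 1 (-0.81, FDR 0.0577), control rat 3 (-0.41, FDR 0.155), MWCNT rat 1 (-0.79, FDR 0.0711), rat 2 (-0.85, FDR 0.0534) or rat 3 (-0.53, FDR 0.137), and in the model of all 18 rats (FDR 0.0513). At Year 0.5 the value was -0.20 without control rat 3 (FDR 0.309) and passed the FDR without control rat 2 (-0.71, FDR 0.0405) and by library size (-0.64, FDR 0.0494).

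Among the remaining expressed members, Cyp4v3, a fatty acid hydroxylase, rose by 0.83 at Year 0.5 (FDR 0.013) and by 0.82 at Year 2 (FDR 0.00346), and had 0.12 (FDR 0.647) at Year 1. Its FDR at Year 0.5 was 0.0504 without control rat 1, and with limma on log2(TPM + 1) its values at Years 0.5 and 2 were 0.51 and 0.50. Cyp4f18, known in mice to degrade leukotriene B4, fell by 0.74 at Year 1 (FDR 0.00964) and by 0.60 at Year 2 (FDR 0.0492), with -0.37 (FDR 0.24) at Year 0.5. At Year 2 its FDR was missed without control rat 1 (-0.66), rat 2 (-0.50) or rat 3 (-0.63) or MWCNT rat 1 (-0.48) or rat 2 (-0.47), and with DESeq2 (FDR 0.0544). Cyp3a9, the family 3 member expressed in lung, ranged from 3.26 to 6.71 TPM over the 18 rats and did not pass at any time (0.12, 0.35 and 0.05). Cyp2j4 and Cyp2j10, of the subfamily of arachidonic acid epoxygenases, Cyp2r1, a vitamin D 25-hydroxylase, and Cyp2t1 did not pass either, with log2 fold changes between -0.58 and 0.73.

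Whether the treatment effect differed between Year 2 and Year 0.5 was tested as an interaction over all 18 rats. With edgeR, 0 of 25 members tested passed an FDR of 0.05, where 1.31% of all 14843 genes did, and DESeq2 gave 3. In edgeR 5 members had an unadjusted p below 0.05, and the share of all genes with such a p was not worked out. Cyp2e1 was nearest, with a log2 difference in effect of -1.44 ± 0.35 (SE, FDR 0.051), followed by Cyp4b1 (-0.55 ± 0.15, FDR 0.0854) and Cyp2d3 (1.29 ± 0.37, FDR 0.0958), and these were the 3 that DESeq2 passed. Over the 24 settings run, the FDR of Cyp2e1 ranged from 0.00289 to 0.142. Cyp2e1 passed without control Year 0.5 rat 2 (-1.61), control Year 2 rat 3 (-1.65), MWCNT Year 0.5 rat 2 (-1.52) or MWCNT Year 1 rat 2 (-1.44). Cyp2d3 passed without control Year 0.5 rat 1 (1.59), and Cyp4b1 (-0.70) and Cyp2b1 (-0.68) passed without MWCNT Year 0.5 rat 2.

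Within the MWCNT rats, Year 2 against Year 0.5, 1 of 25 members was called (all genes, 2.34%). This was Cyp2d3, which was higher by 1.07 ± 0.24 on the log2 scale (SE, FDR 0.00626) and fell below the fold limit without MWCNT Year 0.5 rat 3 (0.96) or MWCNT Year 2 rat 1 (0.996). Cyp2b1 fell by 0.89 (FDR 0.000204), Cyp4b1 by 0.79 (FDR 0.000186), Cyp2e1 by 0.89 (FDR 0.0347) and Cyp2d4 by 0.68 (FDR 0.0111), all within the fold limit. Without MWCNT Year 0.5 rat 2, Cyp2b1 passed it (-1.04). Within the control rats 0 of 25 were called (all genes, 0.633%), with edgeR and with DESeq2. In edgeR 6 had an unadjusted p below 0.05, again without a share of all genes to set it against. Cyp4f18 rose by 0.80 (FDR 0.0344), within the fold limit. The tables of the 3 times were deposited separately, so age and table cannot be told apart in these 2 comparisons.

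Markers of lung cell types moved with treatment beside these members. The marker counts in this and the following paragraphs stand beside the shares of all genes tested. By the FDR, 20.2%, 21.6% and 25.2% of all genes were higher in time order, and 18.6%, 19.6% and 24.0% lower. Called higher were 6.07%, 6.13% and 8.17%, and called lower 3.03%, 4.09% and 8.22%. Of the 5 club cell markers, 2, 3 and 1 were lower by the FDR at Years 0.5, 1 and 2, and 0, 0 and 1 higher, and their summed TPM ranged from 18177 to 32934 over the control rats and from 10666 to 15640 over the MWCNT rats. Scgb1a1, the defining club cell gene, fell by 0.87, 0.91 and 0.80 on the log2 scale (FDR 0.00227, 0.000559 and 0.00479) and made up most of that sum. The other club cell markers did not move alike. Scgb3a1 was called lower at Year 0.5 (-1.99, FDR 0.0259) and had 0.21 (FDR 0.803) at Year 2, and Bpifa1 was called higher at Year 2 (4.11, FDR 0.00197). The median log2 fold change of the 5 was -0.87, -0.91 and -0.26 in time order. Cyp2f4 per 1000 TPM of Scgb1a1 was 3.24 ± 0.98 (SD, n = 3), 3.83 ± 0.63 and 3.35 ± 0.67 in control and 2.36 ± 0.52, 2.44 ± 0.81 and 2.20 ± 0.37 in MWCNT rats. The same ratio for Cyp2b1 was 27.4 ± 6.90, 23.9 ± 2.60 and 27.5 ± 6.84 against 26.5 ± 2.78, 25.8 ± 6.27 and 17.2 ± 2.41. For Cyp4b1 it was 30.4 ± 6.34, 28.4 ± 2.24 and 33.4 ± 8.20 against 22.4 ± 3.56, 24.2 ± 4.35 and 15.5 ± 1.57. For Cyp2a1 it was 0.724 ± 0.391, 0.861 ± 0.261 and 0.723 ± 0.220 against 0.432 ± 0.105, 0.492 ± 0.281 and 0.367 ± 0.0954.

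Alveolar type 2 markers went the other way, with 8, 7 and 8 of 8 higher by the FDR and summed TPM of 28152 to 37325 in control and 52080 to 61938 in MWCNT rats. Sftpc, their defining gene, rose by 0.96, 0.97 and 1.00 and was called at Year 2. Sftpa1, Sftpd and Lamp3 were called higher at every time and Napsa at Year 2. All 4 ciliated cell markers tested were lower at Years 1 and 2 and 3 at Year 0.5, with summed TPM of 1134 to 1381 against 224 to 527. All 5 endothelial markers tested were lower at each time (1951 to 2540 against 696 to 1446), and of the 5 alveolar type 1 markers 5, 4 and 5 were lower (4335 to 5120 against 2314 to 3357). All 5 macrophage markers were higher at each time (153 to 217 against 578 to 865).

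Among these markers, those called lower were Tppp3 at every time, Rsph1 and Dnah5 at Years 1 and 2 and Ccdc113 at Year 2 of the ciliated list, Kdr at Years 0.5 and 2 and Cdh5 and Cldn5 at Year 2 of the endothelial list, and Rtkn2 at Years 1 and 2 of the alveolar type 1 list. The macrophage markers Cd68, Marco and Itgax were called higher at every time, Mrc1 at Years 0.5 and 2 and Adgre1 at Year 2. Cd68 rose by 2.44, 2.50 and 3.03 on the log2 scale.

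All 4 smooth muscle markers were lower at each time, as were 2 of the 3 fibroblast markers, while 1 fibroblast marker was higher at Years 0.5 and 2. Myh11 was called lower at Years 1 and 2, and at Year 2 Dcn was called lower (-1.31) and Col1a1 higher (1.22). Of the 5 heart muscle markers 5, 1 and 1 were lower, with summed TPM of 67.8 to 557 in control and 14.1 to 168 in MWCNT rats. All 5 (Myh6, Myl2, Myl7, Actc1 and Tnnt2) were called lower at Year 0.5, Myl2 also at Year 1 and Actc1 at Year 2. At Year 2, 4 of the 5 were tested. Myl2 was not, and its mean there was 7.23 TPM in control and 0.325 TPM in MWCNT rats. T cell markers were lower in 2, 0 and 3 of 3, with Cd3d, Cd3e and Cd3g called at Year 2. Of the 7 hepatocyte markers 1 passed the filter, Serpina1, and was called lower at Years 0.5 and 2, with summed TPM of 13.8 to 35.5 in control and 4.85 to 21.2 in MWCNT rats. The part of these lists in the changes of the members was not tested.

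Of 13 receptors that control P450 genes, and their partners, 10, 10 and 11 were tested in time order. Of these, 1 was higher and 1 lower by the FDR at Year 0.5 and at Year 1. At Year 2, 3 were higher and 2 lower. Over all genes tested, 20.2%, 21.6% and 25.2% were higher by the FDR in time order, and 18.6%, 19.6% and 24.0% lower. Ahr fell by 0.54 at Year 2 (FDR 0.000963), from a mean of 66.3 TPM in control to 39.2 in MWCNT rats, and had -0.31 and -0.21 at the earlier times (FDR 0.0552 and 0.139). Its partner Arnt had -0.07, -0.08 and -0.02 and did not pass. Ahrr, its repressor, and Nr1i2 were not tested in these comparisons, at 0.0255 to 0.629 and 0.0950 to 0.869 TPM. Nr1i3 (0.14, -0.41 and -0.30) and Ppara, the receptor that controls 4A genes in liver (-0.62, -0.98 and -0.56), did not pass. Pparg, called at Year 2, rose by 1.15 (FDR 0.000178).

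Of 6 genes other than P450 that respond to the aryl hydrocarbon receptor, 5 were tested at each time. Of these, 1 (Nfe2l2) is also counted among the 13 above, and 2 were called, in opposite directions, at Years 1 and 2. Over all genes, 6.13% and 8.17% were called higher and 4.09% and 8.22% lower at those times. By the FDR alone, 2, 3 and 2 of the 5 were higher in time order (all genes, 20.2%, 21.6% and 25.2%). In each comparison 1 was lower (all genes, 18.6%, 19.6% and 24.0%). Aldh3a1, an aldehyde dehydrogenase, fell by 1.16 at Year 1 (FDR 0.0168) and by 2.27 at Year 2 (FDR 0.000435). Ugt1a6, a glucuronosyltransferase, rose by 1.18 at Year 1 (FDR 0.000128) and by 1.63 at Year 2 (FDR 2.15e-06). At Year 0.5 Aldh3a1 had -0.95 (FDR 0.082) and Ugt1a6 had 0.98 (FDR 8.04e-05), both within the fold limit. Of 8 electron donors, none was called. By the FDR alone, 1 was higher at Year 0.5 (all genes, 20.2%), and 3, 2 and 3 were lower in time order (all genes, 18.6%, 19.6% and 24.0%). Por had 0.12, -0.14 and 0.18 and did not pass (FDR 0.351, 0.517 and 0.143), at 123 to 235 TPM in control and 133 to 186 TPM in MWCNT rats.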

How the data were processed

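Total RNA of 18 rat lungs was sequenced after NEBNext Ultra II library preparation, and the authors mapped reads in CLC Genomics Workbench to the Rnor_6.0 (rn6) genome, the build named in the submitters' processing notes. The strand setting of the counting is not given in the sources used here. The deposited counts are total reads per gene as assigned by the authors, and the deposited TPM values are scaled by the authors to transcript length and library. RPKM values, TMM-adjusted CPM values and columns of the authors' own comparisons (fold changes and p-values) were not used. Groups came from the sample titles.

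Counts of all genes were tested at each time point with edgeR 4.0.16 (filterByExpr with a minimum count of 10, TMM, glmQLFit and glmQLFTest, R 4.3.3), with the 6 rats of that time in a fit of their own. The interaction and the comparisons over time used 1 fit of all 18 rats. Members were called at an FDR below 0.05 over all genes tested and an absolute log2 fold change above 1, and the interaction by the FDR alone. The script was tested on simulated data. Members and lists were chosen with earlier results of these data known. Members called in any comparison or with at least 1 TPM in a group were named, with values per rat for called members and the 10 highest in TPM. Genes of other lists were named when called or defining, and 1 marker list is not reported here. P-values measure the spread between 3 rats a group.

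Alternatives were other filters, scaling by library size, DESeq2 1.42.0, limma 3.58.1 on log2(TPM + 1) and log2(TPM + 0.1), 1 model of the 18 rats, a block for the replicate number, and each rat left out. Upstream windows and gene positions were read from RefSeq tables of GRCr8, and 53 of 54 member symbols matched. Alignments were ungapped, over 1035 pairs of windows. The marker genes Foxj1, Pecam1 and Col1a2 were not analysed here.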

Additional observations from a re-analysis of the deposited data

How the results depend on the processing

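The number of members called stayed within 1.5 times the reported 5, 7 and 8 at Years 0.5, 1 and 2 under every setting that kept the fold limit, with 1 rat left out at Year 1 as the exception (4 to 7 over the rats left out, the 4 without control rat 2), and 4 to 5 and 7 to 8 at Years 0.5 and 2. By the FDR alone the numbers were 11, 13 and 13. The interaction, at 0, gave 1 without a filter, with at least 10 counts in every rat and by library size, 3 with DESeq2, and 0 to 3 with 1 rat left out. Members called over time in MWCNT rats, at 1, numbered 0 to 2 with 1 rat left out. In control rats 0 were called under every setting run. In CPM in place of TPM, the shares of families 1, 2, 3 and 4 in control rats were 0.944%, 57.0%, 0.214% and 41.8%, since counts are not divided by length. No fold change of a named member reversed while past the threshold. Scaling by library size moved the median log2 fold change of all genes to -0.125, -0.134 and -0.182, and turned the sign of 3 members at Year 1 and 2 at Year 2, none of which had passed the FDR.

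The replicate numbers are shared between groups of separate rats, and same-numbered control and MWCNT rats did not deviate together, with correlations of -0.147 to 0.107 over 9 pairs, of which 1 was above 0.1, and 6 of 18 rats correlating best with their own number. With the replicate block the members called numbered 5, 7 and 8, with 0 for the interaction, 0 over time in control rats and 1 in MWCNT rats. By the FDR alone, Cyp1b1 (FDR 0.108) and Cyp4f18 (FDR 0.0629) no longer passed at Year 2 with the block.

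In genes near 1 TPM (Cyp4a8, Cyp4f39, Cyp2r1) the parts of depth and of the spread between 3 rats were not tested, and members without counts cannot be told from members below 3 counts in a library.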

Other observations

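P450 genes outside families 1 to 4 moved in both directions. Of 19 such genes in the tables, 10 were tested at each time. By the FDR 4 were higher at each time (all genes, 20.2%, 21.6% and 25.2%). At Years 0.5, 1 and 2, 3, 2 and 4 were lower (all genes, 18.6%, 19.6% and 24.0%). Tbxas1, the thromboxane synthase, rose from a mean of 16.9, 18.6 and 16.6 TPM in control to 50.3, 53.6 and 67.0 TPM in MWCNT rats, a log2 fold change of 1.72, 1.77 and 2.23 (FDR 1.35e-05, 1.07e-05 and 2.46e-06). Cyp27a1, a sterol 27-hydroxylase, was called lower at Year 2 (-1.10, FDR 1.99e-05), as were Cyp26b1, which breaks down retinoic acid (-1.24, FDR 0.000332), Cyp46a1, a cholesterol hydroxylase (-1.60, FDR 0.00255), and Cyp21a1, the steroid 21-hydroxylase (-1.07, FDR 0.00923). Cyp26a1, also a retinoic acid hydroxylase, was called lower at Year 0.5 (-1.40, FDR 0.031).

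Of 4 epoxide hydrolases, which open the epoxides that P450 enzymes form, 0, 2 and 1 were lower by the FDR in time order (all genes, 18.6%, 19.6% and 24.0%). Ephx4 fell by 2.55 at Year 1 (FDR 0.00128) and by 3.34 at Year 2 (FDR 0.000442), and had -1.53 (FDR 0.0543) at Year 0.5. Its mean TPM was 3.41, 4.55 and 4.41 in control and 1.12, 0.652 and 0.362 in MWCNT rats.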
